A study of Mus musculus with 14 samples.

Results

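Levels of 35 macrophage and myeloid genes were read in whole mammary glands of ovariectomized mice given estrogen, a blocker of its receptor, or both. The genes were chosen by name with earlier results of these data known. Their counts and medians beside those of all genes are therefore not independent support for a pattern already seen. Each gene was read from the probe set annotated with its symbol alone that had the highest mean over the arrays. By that rule 34 of the 35 genes were measured, among 18193 genes measured in all. Spp1, which encodes the secreted protein osteopontin, had no probe set with a single symbol and is not analysed here. The 34 genes were covered by 56 probe sets, and 22 of them had 1 probe set only.

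Female C57BL/6 mice, 11 to 12 weeks old on arrival, lost their ovaries 7 days before treatment and were killed 3 h after it, so low ovarian estrogen was common to all groups. Vehicle alone, 17b-estradiol (E2), acolbifene (EM-652.HCl) and E2 with acolbifene were each read on 2 arrays. Tamoxifen citrate, raloxifene and fulvestrant (ICI 182780), each without and with E2, were each read on 1 array, which gave 14 arrays in 10 groups. The glands of a group of 8 mice were pooled before extraction, so the arrays hold no spread between animals. Nothing in the labels says that a pair of arrays was made from separate pools, and the raw-file names of a pair share a middle part, so the p-values below measure only how far paired arrays differ, and that spread may be technical. No source used here gives the doses of the blockers, so whether they were matched is unknown.

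Macrophages sit in the fat and collagen around the mammary ducts, where they clear dying cells and remodel the stroma as the gland grows and regresses. They sense microbes and damaged tissue through pattern recognition receptors, engulf coated particles through Fc, complement and scavenger receptors, degrade them in lysosomes, and call in further monocytes by secreting chemokines. E2 acts on the gland through estrogen receptors. Tamoxifen, raloxifene and acolbifene are selective estrogen receptor modulators that block or partly activate the receptor depending on the tissue, and fulvestrant is a steroidal antagonist that leads to loss of the receptor protein. Since whole glands were measured, fewer cells of a type and less RNA per cell cannot be told apart. The cells that made a member's RNA were not identified, and they need not be macrophages.

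The values are log2 expression levels, so a difference of 1 is a doubling. Their array medians ran from 7.16 to 7.23. Fat was represented by the hormone gene Adipoq at a mean of 13.87, and epithelium by the keratin genes Krt18 at 10.75 and Krt14 at 8.18. Raw-file names began with R136 for the 6 unreplicated arrays and E2 array 1, and with R137 for the other 7, and the meaning of the code is not stated. The raloxifene array also carried the same middle part of the raw-file name as the E2+acolbifene pair, and it differed from those arrays by over 1.5-fold in 280 and 237 probe sets. Against the other R136 arrays that number ran from 88 (E2+raloxifene), 94 (tamoxifen) and 103 (fulvestrant) to 396 (E2 array 1), so it does not settle the label. Control probe sets spiked in at hybridization averaged 9.86 to 10.04 on both E2 arrays and the unreplicated arrays, and 10.23 to 10.41 on the 6 others. Control probe sets at the 3' and 5' ends of Actb, whose difference reflects RNA and labeling quality, differed by 0.41 and 0.43 on the E2 arrays. The same log2 difference was 0.32 to 0.41 on the unreplicated arrays and 0.24 to 0.31 on the 6 others. The part of these splits in the differences from E2 reported below was not tested. No member differed by over 1.5-fold between the 2 arrays of any group, and the largest such difference was 0.43, for Itgam in E2+acolbifene.

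Promoters are shown for 4 members that the results turn on, namely Clec4d and Clec4e, which encode C-type lectins, Itgam and Cd68. Of the measured members, 24 had a promoter among the RefSeq-derived sequences, which span 250 bases before to 50 bases after a gene's start on mouse build GRCm38.p6. Capitals mark GAGGAA or its reverse complement, the core that PU.1, the factor that specifies the myeloid lineage, and other ETS factors recognize.
Clec4d promoter, GRCm38.p6, chr6:123261857-123262156, plus strand: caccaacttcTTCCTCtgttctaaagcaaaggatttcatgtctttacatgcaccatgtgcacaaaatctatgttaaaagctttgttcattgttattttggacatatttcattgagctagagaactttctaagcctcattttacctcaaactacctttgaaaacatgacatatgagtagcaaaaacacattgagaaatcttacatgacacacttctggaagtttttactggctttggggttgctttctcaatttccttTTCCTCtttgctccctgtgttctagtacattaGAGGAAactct
Clec4e promoter, GRCm38.p6, chr6:123289822-123290121, minus strand: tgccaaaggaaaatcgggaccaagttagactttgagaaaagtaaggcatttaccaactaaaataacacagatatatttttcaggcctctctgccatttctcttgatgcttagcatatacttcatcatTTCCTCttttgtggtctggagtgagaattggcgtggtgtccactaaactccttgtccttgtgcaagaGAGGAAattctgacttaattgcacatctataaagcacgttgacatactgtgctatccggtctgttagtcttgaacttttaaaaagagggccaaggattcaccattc
Itgam promoter, GRCm38.p6, chr7:128062390-128062689, plus strand: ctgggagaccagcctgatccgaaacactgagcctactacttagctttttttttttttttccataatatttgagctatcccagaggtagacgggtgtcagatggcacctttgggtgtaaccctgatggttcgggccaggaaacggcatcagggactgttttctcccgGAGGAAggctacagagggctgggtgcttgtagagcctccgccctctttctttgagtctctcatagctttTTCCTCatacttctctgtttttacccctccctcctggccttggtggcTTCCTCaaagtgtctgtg
Cd68 promoter, GRCm38.p6, chr11:69666121-69666420, minus strand: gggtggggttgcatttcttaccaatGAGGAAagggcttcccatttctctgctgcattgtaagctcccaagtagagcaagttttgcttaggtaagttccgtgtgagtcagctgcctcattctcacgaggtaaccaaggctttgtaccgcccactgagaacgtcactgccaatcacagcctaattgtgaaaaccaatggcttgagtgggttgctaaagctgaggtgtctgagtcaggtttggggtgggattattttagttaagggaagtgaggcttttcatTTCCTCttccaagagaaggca
GAGGAA on either strand occurred 3 times in the Clec4d window, 2 times in Clec4e, 3 times in Itgam and 2 times in Cd68. It was present in 16 of the 26 promoter entries of members (61.5%), which belong to 14 genes, and in 28.3% of all 32851 promoters. TGAGTCA, the AP-1 site, occurred in 3 member entries (Cd68, Gpnmb and Itgax) and in 5.2% of all promoters, and it did not overlap GAGGAA in letters. TTGCNNAA, a C/EBP site, occurred in the entries of 5 genes (Cd68, Clec4e, Ctsk, Fcgr3 and Trem2) and in 10.8% of all. The estrogen response element, GGTCA and TGACC with any 3 bases between them, was in 0 member entries and in 0.07% of all. These matches describe letters in short windows and do not show binding.

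The members were well expressed. Lyz2, the macrophage lysozyme, had a mean level of 13.11 over the arrays, Csf1r, the receptor for the growth factor that keeps macrophages alive, 12.70, and Ctss, a lysosomal protease, 12.34. In all, 14 members lay above the 90th percentile of probe set levels and 33 above the 50th. The exception was Clec4e at 7.01 (percentile 46.6), with array values from 6.57 to 7.76, some of them under the 40th percentile level of 6.65. Over the arrays a member varied by 0.43 (Csf1r) to 1.43 (Clec4d), with a median range of 0.64.

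The arrays fell on both sides of vehicle. The median member stood above the vehicle mean by 0.19 and 0.18 on the acolbifene arrays, 0.21 on the fulvestrant array and 0.15 on the E2+raloxifene array. It stood below it on the E2 arrays (-0.11 and -0.16), the E2+acolbifene arrays (-0.13 and -0.17), the E2+fulvestrant array (-0.14) and the E2+tamoxifen array (-0.25), and near it with raloxifene (0.00) and tamoxifen (-0.03) alone. Over all genes the same medians ran only from -0.05 to 0.04, but the members were brighter than most probe sets. Summed linear levels of all genes were 12950000 and 12580000 with acolbifene and 12160000 and 12350000 with vehicle. They were 11880000 and 12350000 with E2, 11640000 and 11340000 with E2+acolbifene, and 10980000 with E2+tamoxifen. Fulvestrant, with its members above vehicle, had 11860000. The part of these sums in the members' medians was not tested. The highest of the 14 values fell on an acolbifene array for 17 members and on the fulvestrant array for 7, and the lowest fell on the E2+tamoxifen array for 13. Acolbifene had 2 arrays to hold an extreme, and the same counts over all genes were not made. On E2+tamoxifen 73.5% of members and 48.6% of all genes lay below both vehicle arrays. Above both lay 79.4% and 70.6% of members on acolbifene arrays 1 and 2, and 46.9% and 41.7% of all genes.

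**Figure D1:**
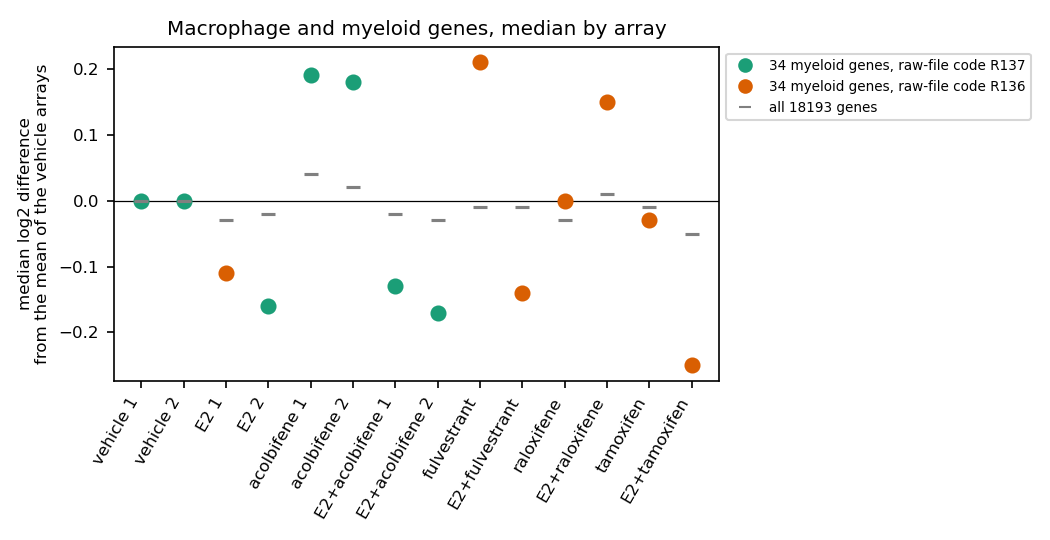
Median log2 difference of the 34 measured genes from the mean of the vehicle arrays (y axis) on each of the 14 arrays (x axis), colored by raw-file code, with the same median over all 18193 genes as a gray dash. Both acolbifene arrays, fulvestrant and E2+raloxifene lie at 0.15 or above, and both E2 and both E2+acolbifene arrays lie at -0.11 or below.

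**Figure D2:**
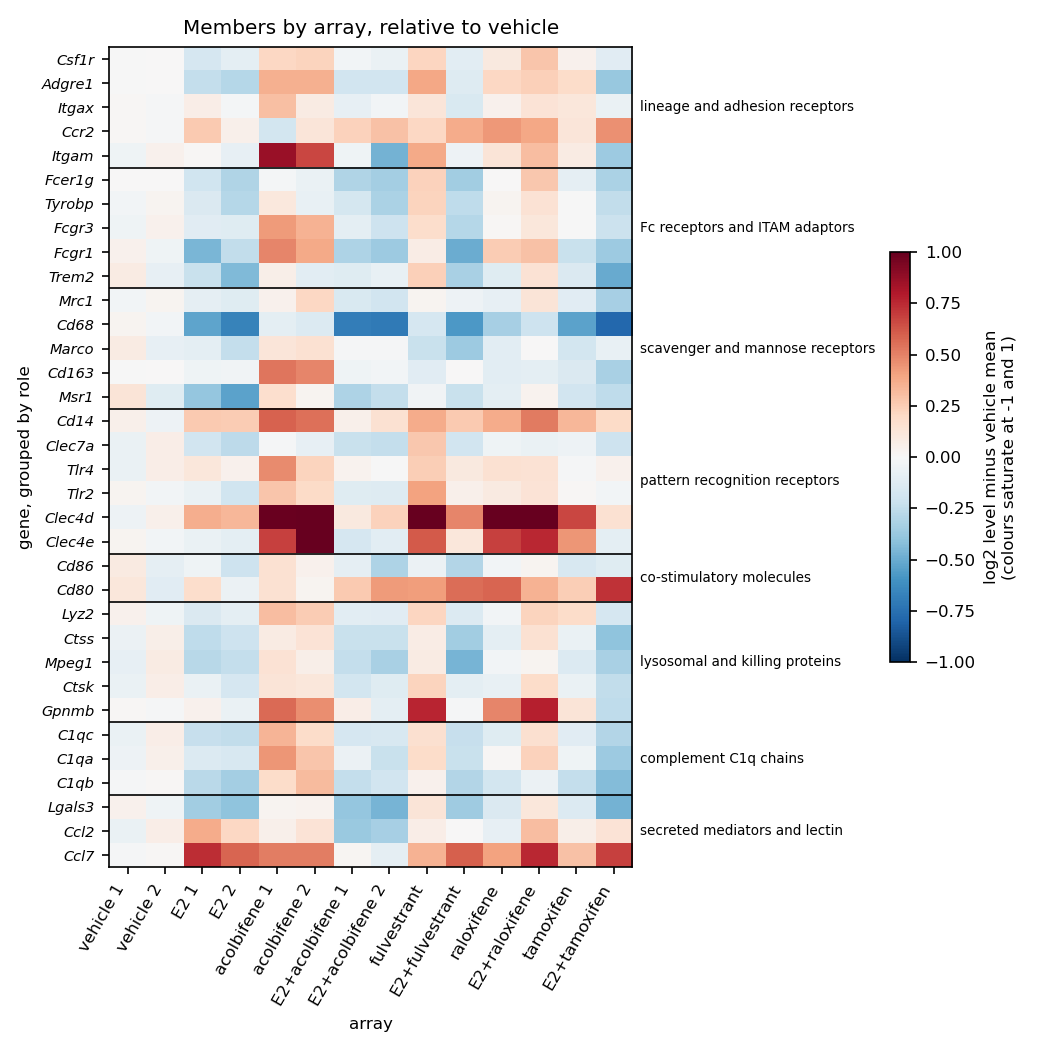
Log2 level of each of the 34 genes (rows, grouped by role) on each array (columns) minus the mean of the 2 vehicle arrays; red is higher, blue is lower, and colors saturate at -1 and 1. Clec4d and Clec4e are red on the acolbifene, fulvestrant, raloxifene and E2+raloxifene arrays, and paler red on the tamoxifen array. Cd68 is bluest on the E2, E2+acolbifene, E2+fulvestrant, tamoxifen and E2+tamoxifen arrays.

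E2 alone lowered 3 of the members and raised 1 within 3 h. Cd68, a lysosomal scavenger protein used as a macrophage marker, Msr1, a scavenger receptor for modified lipoproteins, and Lgals3, a secreted galactose-binding lectin, fell, and Ccl7, a chemokine for monocytes, rose. A gene was called changed at a limma adjusted p under 0.05, with the adjustment over all 45037 probe sets. Among all genes 1.6% were called lower and 2.35% higher. After quantile normalization again, 1 member was called lower and 2 higher, with 759 of all genes called. Of the 4 genes named above, Cd68 and Ccl7 kept their calls there. The median member difference was -0.13 with 26 of 34 below 0, against a median of -0.02 over all genes. The count depended on single arrays: it was 2 (Cd68 and Ccl7) without vehicle array 1, either E2 array or either E2+acolbifene array.

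Acolbifene alone raised 7 members over vehicle and lowered none: Clec4d, Clec4e, Itgam, Cd14, Cd163, Gpnmb and Ccl7. The background was 0.544% of all genes called higher and 0.242% lower. The median difference was 0.20, with 29 of 34 members above 0, and over all genes it was 0.03. With either vehicle array left out, Clec4d was the single call, and with either acolbifene array left out the calls were Clec4d and Clec4e.

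Set against E2, acolbifene was higher in 17 members and lower in none that passed the test. They were Clec4e, Itgam, Fcgr1, Clec4d, Adgre1, Msr1, C1qb, Cd163, Gpnmb, C1qa, Fcgr3, C1qc, Cd68, Lgals3, Lyz2, Tlr2 and Csf1r, with differences from 0.93 down to 0.34. Of all genes 2.74% were called higher and 1.93% lower. The member median was 0.35, with 31 of 34 above 0, and the all-gene median was 0.05. Without E2 array 1, which gives the same fit as a term for the raw-file code, 4 calls were left (Adgre1, Fcgr1, Clec4d and Clec4e); 8 were left without E2 array 2, and 6 and 8 without acolbifene arrays 1 and 2.

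**Figure D3:**
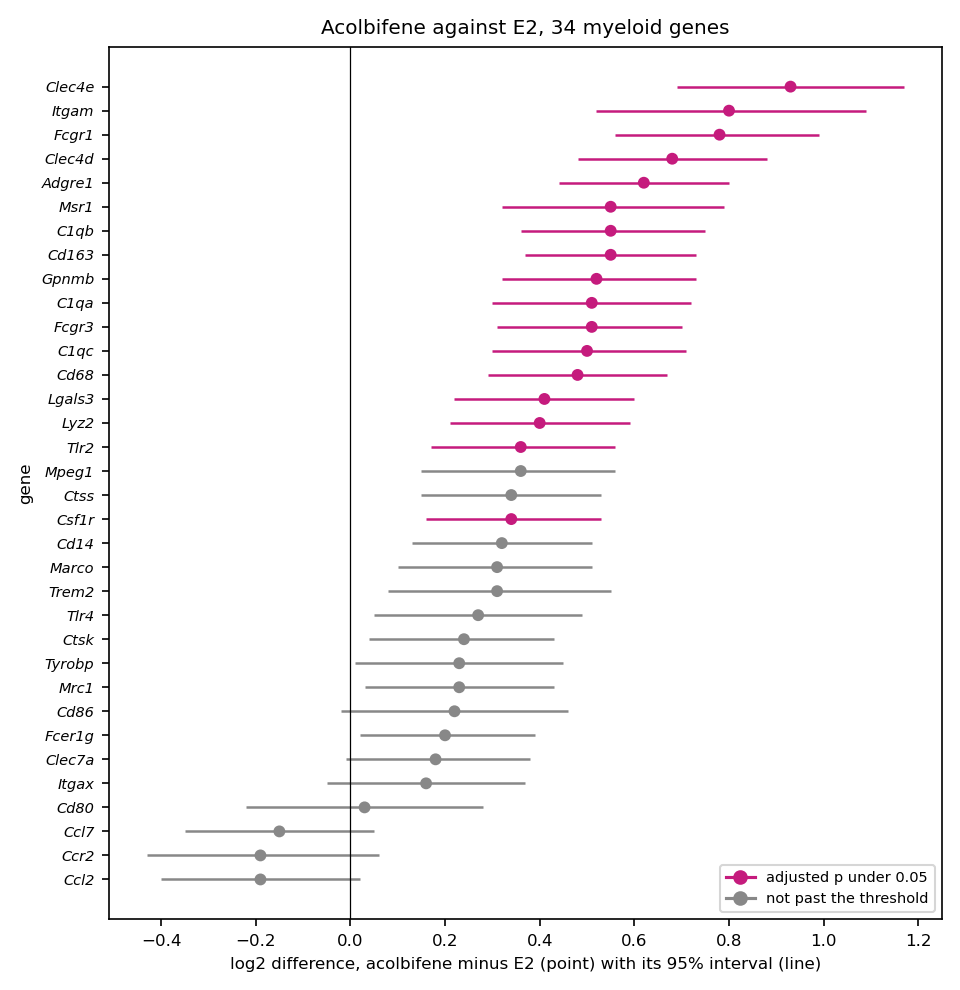
Log2 difference between the acolbifene and the E2 pairs for the 34 genes (point, x axis) with its 95% interval from limma (line); genes with an adjusted p under 0.05 are pink. Clec4e is highest at 0.93, 17 genes are pink, and Ccl2, Ccl7 and Ccr2 have points below 0. The other Ccr2 probe sets, which are not drawn, were above 0.

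When both agents were given, the median member lay below vehicle, as on the E2 arrays, and the chemokines Ccl7 and Ccl2 lay below their level with E2 alone. Against E2 alone, E2+acolbifene lowered Ccl7 and Ccl2 and raised no member, where 2.12% of all genes were called lower and 1.62% higher. The median member difference was -0.01, and over all genes 0.00. No call was left without E2+acolbifene array 2, and Ccl7 alone was left without E2+acolbifene array 1 or E2 array 1. Against vehicle, E2+acolbifene lowered Cd68 and Lgals3 and raised none, with 0.495% of all genes called lower and 0.599% higher, and a member median of -0.15. Leaving out either vehicle array or either E2+acolbifene array took both calls away, and leaving out any other array left Cd68.

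Whether acolbifene acted differently without and with E2 was tested directly as the difference of the 2 effects. That difference was below 0 and past the threshold in 7 members (Ccl7, Clec4d, Itgam, Clec4e, Ccl2, Cd14 and Cd163) and above 0 in none, against 3.54% of all genes below and 1.58% above. The median over the members was -0.19, and over all genes -0.02. The count was 3 without vehicle array 1, E2 array 2 or acolbifene array 1, and 2 (Clec4d and Ccl7) without E2+acolbifene array 2.

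**Figure D4:**
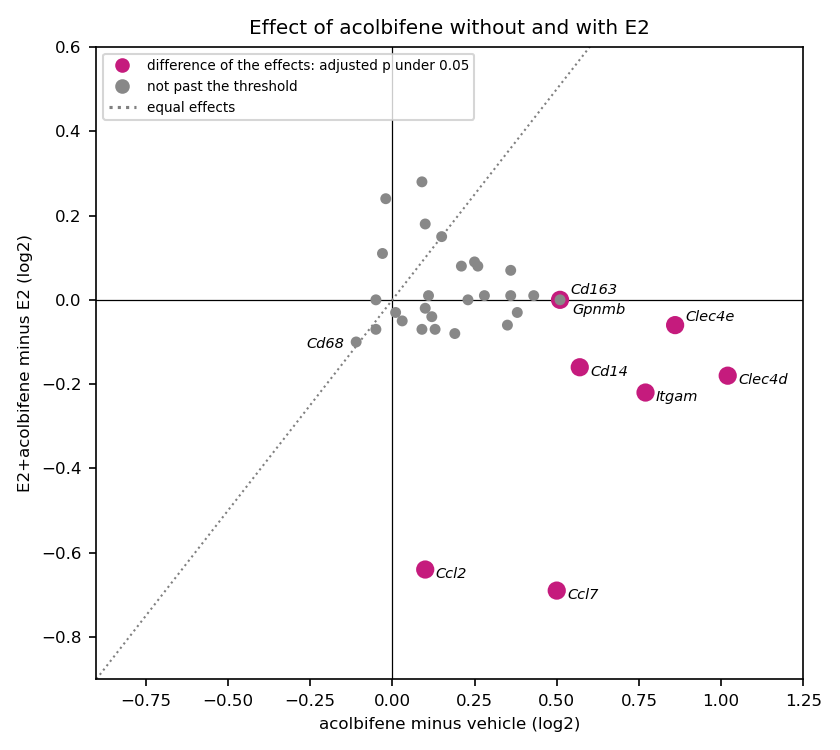
Effect of acolbifene without E2 (x axis, log2 difference from vehicle) against its effect with E2 (y axis, log2 difference from E2 alone) for the 34 genes; the dotted line marks equal effects and large pink points mark the 7 genes whose effects differed at an adjusted p under 0.05. Clec4d lies at 1.02 and -0.18, Ccl7 at 0.50 and -0.69, and Gpnmb coincides with Cd163 at 0.51 and 0.00.

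Pattern recognition receptors held the 2 members with the highest differences between acolbifene and vehicle, Clec4d and Clec4e. Clec4d, a C-type lectin receptor for mycobacterial glycolipid that signals through the Fc receptor gamma chain, read 7.07 and 7.17 with vehicle, 7.48 and 7.45 with E2, 8.11 and 8.18 with acolbifene, and 7.22 and 7.35 with both. Both acolbifene arrays lay above every other array among these 8. Acolbifene exceeded vehicle by 1.02 ± 0.09 (SE, n = 2 arrays a group), a 2.03-fold difference (adjusted p = 0.00131), and the effect differed with E2 by -1.20 ± 0.13 (adjusted p = 0.00168). The probe set used is of a kind whose probes can match more than 1 transcript. Clec4e, or Mincle, which senses glycolipid and dead cells, read 6.76 and 6.71 with vehicle, 6.67 and 6.64 with E2, 7.42 and 7.76 with acolbifene, and 6.57 and 6.63 with both. The acolbifene arrays were again apart from the rest, and they exceeded vehicle by 0.86 ± 0.11 (adjusted p = 0.00727). A second, dim Clec4e probe set with a mean of 5.68 differed by 0.13 (adjusted p = 0.601).

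Cd14, the co-receptor for bacterial lipopolysaccharide, read 9.60 and 9.50 with vehicle, 9.81 and 9.80 with E2, 10.14 and 10.10 with acolbifene, and 9.60 and 9.70 with both. E2 and acolbifene arrays were all above vehicle, the second by more: 0.57 ± 0.09 for acolbifene (adjusted p = 0.0173) and 0.25 ± 0.09 for E2 (adjusted p = 0.137). Tlr2, the receptor for bacterial lipoproteins, read 8.04 and 7.91 with E2 and 8.39 and 8.30 with acolbifene, and the difference of 0.36 passed the test (adjusted p = 0.0452). Tlr4, which works with Cd14, differed from vehicle by 0.35 with acolbifene (adjusted p = 0.146), and 1 of its 3 other probe sets passed the test for the difference of the acolbifene effects (-0.63, adjusted p = 0.0356). Clec7a, the beta-glucan receptor Dectin-1, passed the test in no comparison, with values between 9.41 and 9.94 on all arrays.

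Scavenger and mannose receptors moved in both directions. Cd68 read 10.59 and 10.54 with vehicle, 10.04 and 9.90 with E2, 10.47 and 10.43 with acolbifene, and 9.87 and 9.86 with both. The E2 and E2+acolbifene arrays did not overlap with the vehicle or acolbifene arrays. The difference from vehicle was -0.60 ± 0.09 with E2, a 1.51-fold fall (adjusted p = 0.00412), and -0.70 ± 0.09 with both agents (adjusted p = 0.0053). The effects of acolbifene without and with E2 differed by 0.01, with an interval from -0.26 to 0.28.

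Msr1 read 9.19 and 8.94 with vehicle, 8.68 and 8.53 with E2, 9.23 and 9.09 with acolbifene, and 8.76 and 8.83 with both. The E2 arrays were lowest, with a difference of -0.45 ± 0.11 from vehicle (adjusted p = 0.0417). A second Msr1 probe set with a mean of 8.28 showed 0.08 for E2 (adjusted p = 0.704) and 0.58 for acolbifene (adjusted p = 0.0346). For the difference of the acolbifene effects it gave -0.93 (adjusted p = 0.0106), where the probe set used gave 0.09 (adjusted p = 0.753). The other 2 Msr1 probe sets each gave -0.15 for E2 (adjusted p = 0.525 and 0.378). The fall with E2 thus passed the test in 1 of 4 probe sets. Cd163, which takes up hemoglobin bound to haptoglobin and marks tissue-resident macrophages, read 9.65 and 9.66 with vehicle, 9.61 and 9.62 with E2, 10.19 and 10.14 with acolbifene, and 9.61 and 9.63 with both. Only the acolbifene arrays stood out of these 8, by 0.51 ± 0.08 over vehicle (adjusted p = 0.022). The 6 unreplicated arrays read 9.33 to 9.66 for Cd163, and 5 of them lay below both vehicle arrays. Mrc1, the mannose receptor, and Marco, a scavenger receptor for bacteria, passed the test in no comparison, and Mrc1 differed from vehicle by 0.13 with acolbifene and -0.10 with E2.

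Among lineage and adhesion receptors, Itgam, the CD11b chain of complement receptor 3, read 8.21 and 8.29 with vehicle, 8.26 and 8.17 with E2, 9.11 and 8.92 with acolbifene, and 8.21 and 7.78 with both. The acolbifene arrays were above all others, by 0.77 ± 0.13 or 1.71-fold over vehicle (adjusted p = 0.0269). Adgre1, the F4/80 antigen of mouse macrophages, read 10.40 and 10.41 with vehicle, 10.17 and 10.12 with E2, 10.76 on each acolbifene array, and 10.21 on each array with both. The 3 levels did not overlap: acolbifene over E2 gave 0.62 ± 0.08 (adjusted p = 0.0036), while neither E2 (-0.26, adjusted p = 0.103) nor acolbifene (0.36, adjusted p = 0.0791) passed the test against vehicle.

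Csf1r read 12.66 and 12.67 with vehicle, 12.50 and 12.57 with E2, 12.87 and 12.89 with acolbifene, and 12.64 and 12.60 with both. Acolbifene lay above E2 by 0.34 ± 0.08 (adjusted p = 0.0435), and its other 2 probe sets were called too, at 0.39 and 0.49. Itgax, the CD11c chain of dendritic cells and some macrophages, differed by 0.16 in that comparison (adjusted p = 0.349). Ccr2, the receptor that draws monocytes from blood, differed by -0.19 (adjusted p = 0.368), whereas its 3 other probe sets were higher with acolbifene than with E2. The one with a mean of 8.61 differed by -0.51 between E2 and vehicle (adjusted p = 0.0132) and by 0.64 between acolbifene and E2 (adjusted p = 0.00518). The remaining Ccr2 probe sets gave 0.39 and 0.17 for acolbifene over E2 (adjusted p = 0.0615 and 0.488).

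The Fc receptors and their adaptors, which turn antibody binding into uptake, were grouped with the receptor gene Trem2. All 5 genes were lower with E2 than with vehicle, from -0.35 to -0.12, and none passed the test. Of all 18193 genes, 10153 lay below 0 in that comparison. Fcgr1, the high-affinity receptor for immunoglobulin G, read 9.27 and 9.18 with vehicle, 8.77 and 8.98 with E2, 9.71 and 9.60 with acolbifene, and 8.92 and 8.86 with both. Its acolbifene arrays were highest and its E2 and E2+acolbifene arrays lowest, and acolbifene exceeded E2 by 0.78 ± 0.10 or 1.71-fold (adjusted p = 0.00277). Fcgr3, a low-affinity receptor, read 9.69 and 9.68 with E2 and 10.23 and 10.15 with acolbifene, a difference of 0.51 (adjusted p = 0.0126). For the signaling adaptors Fcer1g and Tyrobp acolbifene minus E2 was 0.20 and 0.23, and neither passed the test (adjusted p = 0.19 and 0.206). Against vehicle no gene of this group passed with acolbifene, at 0.43 for Fcgr1, 0.38 for Fcgr3, -0.05 for Fcer1g and 0.01 for Tyrobp. Differences between the receptors and the adaptors were not tested. Trem2, a lipid-sensing receptor that signals through Tyrobp, read 7.96 and 7.79 with vehicle and 7.65 and 7.43 with E2, a difference of -0.34 that did not pass the test (adjusted p = 0.108), and a second probe set gave 0.26.

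All 3 chains of complement C1q, which in tissues is made largely by macrophages and tags debris for removal, were higher with acolbifene than with E2. C1qa read 11.99 and 12.09 with vehicle, 11.90 and 11.88 with E2, 12.48 and 12.32 with acolbifene, and 11.98 and 11.82 with both. C1qb read 11.51 and 11.53, 11.25 and 11.18, 11.70 and 11.84, and 11.28 and 11.33 in the same order, and C1qc 12.12 and 12.26, 11.96 and 11.94, 12.53 and 12.37, and 12.02 and 12.03. For each chain, at the probe set used, both acolbifene arrays lay above both vehicle arrays and both E2 arrays below them. The share of all genes separated in this way was not counted. The differences between acolbifene and E2 were 0.51, 0.55 and 0.50 (adjusted p = 0.0169, 0.0089 and 0.0159). Differences from vehicle did not pass the test with acolbifene (0.36, 0.25 and 0.26) or with E2 (-0.15, -0.31 and -0.24). The other 2 C1qb probe sets gave 0.17 and 0.27 for acolbifene over E2 and were not called. For E2 against vehicle they gave 0.11 and -0.08, so they differed in sign.

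Of the lysosomal and killing proteins, Gpnmb, a glycoprotein of lipid-laden and repair macrophages, read 9.69 and 9.66 with vehicle, 9.72 and 9.61 with E2, 10.24 and 10.14 with acolbifene, and 9.74 and 9.58 with both. The acolbifene arrays stood above the other 6, and exceeded vehicle by 0.51 ± 0.09 (adjusted p = 0.0393). A second Gpnmb probe set with a mean of 4.89 gave -0.09. Lyz2 read 13.13 and 13.04 with vehicle, 12.94 and 12.99 with E2, 13.39 and 13.34 with acolbifene, and 12.98 and 12.97 with both, and acolbifene over E2 was 0.40 ± 0.09 (adjusted p = 0.0278). The proteases Ctss and Ctsk and the pore-forming Mpeg1 differed by 0.34, 0.24 and 0.36 in that comparison, with adjusted p = 0.0512, 0.148 and 0.0547.

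The secreted members were the chemokines Ccl7 and Ccl2 and the lectin Lgals3, which differed among themselves. Ccl7 read 8.22 and 8.24 with vehicle, 8.97 and 8.81 with E2, 8.74 on each acolbifene array, and 8.25 and 8.14 with both. Each agent alone raised it, E2 by 0.66 ± 0.09 (adjusted p = 0.00309) and acolbifene by 0.50 ± 0.09 (adjusted p = 0.038), while the arrays with both agents overlapped vehicle (-0.04, interval -0.24 to 0.16). Ccl2, the main monocyte chemokine, read 8.63 and 8.77 with vehicle, 9.07 and 8.91 with E2, 8.75 and 8.84 with acolbifene, and 8.33 and 8.37 with both. The last pair was lowest, and the difference made by acolbifene on top of E2 was -0.64 ± 0.09 (adjusted p = 0.0102). Lgals3 read 11.86 and 11.77 with vehicle, 11.47 and 11.41 with E2, 11.84 and 11.85 with acolbifene, and 11.43 and 11.35 with both. Like Cd68 it was lower on all 4 of these arrays that had E2, with no overlap. The difference from vehicle was -0.37 ± 0.09 for E2 (adjusted p = 0.0385) and -0.43 ± 0.09 for E2+acolbifene (adjusted p = 0.0496). The co-stimulatory ligands Cd80 and Cd86, which help activate T cells, passed the test in no comparison of these groups.

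**Figure D5:**
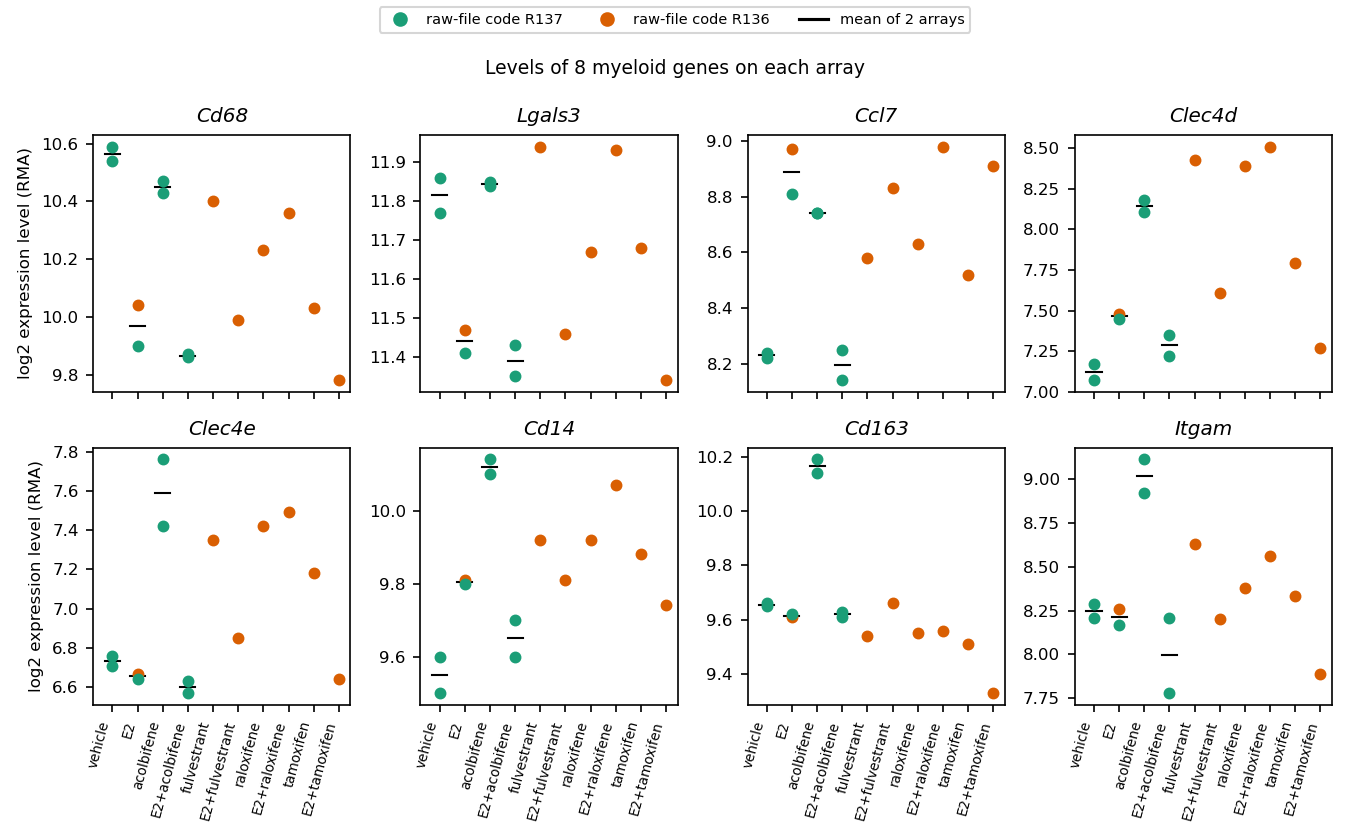
Log2 expression level (y axis, which does not start at 0) of Cd68, Lgals3, Ccl7, Clec4d, Clec4e, Cd14, Cd163 and Itgam on every array by treatment (x axis), colored by raw-file code, with a bar at the mean of each pair. Clec4d reaches 8.39 to 8.51 with raloxifene, fulvestrant and E2+raloxifene, and Cd163 is highest on the acolbifene pair.

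Tamoxifen, raloxifene and fulvestrant differ in structure from acolbifene, a benzopyran: tamoxifen is a triphenylethylene, raloxifene a benzothiophene and fulvestrant a steroid. Their arrays have no replicate, so each was assumed to vary like the replicated groups in a fit that also held a term for the raw-file code. Only the E2 pair holds both codes, so the code term is the difference between its 2 arrays. Each difference from E2 in this fit is thus 1 array minus E2 array 1. Clec4d read 8.39 with raloxifene, 8.43 with fulvestrant, 7.79 with tamoxifen, 8.51 with E2+raloxifene, 7.61 with E2+fulvestrant and 7.27 with E2+tamoxifen. Raloxifene, fulvestrant and E2+raloxifene were thus above both acolbifene arrays, and tamoxifen lay between E2 and acolbifene. It was the one member called in any of the 12 comparisons: in fulvestrant minus vehicle (1.28 ± 0.17, adjusted p = 0.0248, with 0.247% of all genes called higher), raloxifene minus E2 (0.91 ± 0.13, adjusted p = 0.0372, 0.077%), fulvestrant minus E2 (0.95 ± 0.13, adjusted p = 0.0126, 0.418%) and E2+raloxifene minus E2 (1.02 ± 0.13, adjusted p = 0.0292, 0.055%). In raloxifene minus vehicle it was 1.24, with an interval from 0.85 to 1.62 and adjusted p = 0.119.

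In the 8 comparisons with no member called, 0 to 0.203% of all genes were called. At an unadjusted limma p under 0.05 they held 2 to 9 members (5.88% to 26.5%) and 3.12% to 14.1% of all genes, and in E2+tamoxifen minus E2 the members' share of 8.82% was below the 14.1% of all genes. The differences from E2 array 1 that follow are the same as those from E2 in the fit, not a separate comparison. Within code R136, the raloxifene array exceeded E2 array 1 in 28 of 34 members (median 0.15), the fulvestrant array in 28 (median 0.35) and the E2+raloxifene array in 32 (median 0.30). The tamoxifen array did so in 24 (median 0.08), the E2+fulvestrant array in 13 (median -0.03) and the E2+tamoxifen array in 7 (median -0.10). Over all genes 44.3% to 55.8% were higher than E2 array 1 on these arrays. Measured against vehicle instead, raloxifene alone had 15 members (44.1%) above and 12 (35.3%) below both vehicle arrays, with 31.4% of all genes above and 45.5% below. The E2+raloxifene array had 26 members (76.5%) above and the fulvestrant array 28 (82.4%), with 38.7% and 36.4% of all genes above.

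Clec4e read 7.42 with raloxifene, 7.35 with fulvestrant, 7.49 with E2+raloxifene, 7.18 with tamoxifen, 6.85 with E2+fulvestrant and 6.64 with E2+tamoxifen. Gpnmb read 10.16, 10.44, 10.45, 9.80, 9.66 and 9.42 in that order. For both genes the arrays of raloxifene, fulvestrant and E2+raloxifene were the highest of the 6, and no difference passed the test with the code in the model. Cd68 read 10.23, 10.40, 10.36, 10.03, 9.99 and 9.78, all below both vehicle arrays.

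Between raloxifene and tamoxifen the Clec4d difference was 0.60, with an interval from 0.31 to 0.89 and adjusted p = 1, at doses that are not known to match. For Cd14 the same difference was 0.04, with an interval from -0.25 to 0.32, and for Cd68 0.21, from -0.06 to 0.47. With 0 members and 0 genes of all called there, neither a difference nor its lack was shown.

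Other macrophage genes were read from a list of 48, of which 43 were measured. They had medians of -0.12 with E2 (2 higher and 1 lower called), 0.21 with acolbifene (1 higher called) and 0.26 for acolbifene over E2 (9 higher and 0 lower called). Csf3r, the receptor for granulocyte colony-stimulating factor, rose by 0.55 with acolbifene. Spi1, which encodes PU.1, had a mean level of 9.37 and was higher with acolbifene than E2 by 0.43 (adjusted p = 0.0237). Cybb, the catalytic subunit of the phagocyte oxidase, fell by 0.42 with E2, and Cebpb, a transcription factor of inflammatory genes, rose by 0.41.

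Genes of macrophage activation, 38 of 40 measured, included larger changes than the members. With acolbifene 5 rose and 1 fell: Arg1, an arginase typical of alternative activation, by 1.63, the neutrophil chemokines Cxcl2 by 1.48, Cxcl5 by 1.24 and Cxcl3 by 1.07, and the lectin Mgl2 by 0.52, while Ccl5 fell by 0.48. With E2 4 rose and 1 fell, among them Socs3, an inhibitor of cytokine signaling, by 1.36, and Ccl12, a monocyte chemokine, by 1.08, and Chil3, a chitinase-like protein, fell by 0.65. The difference of the acolbifene effects was called below 0 for 11 and above 0 for 1, with Cxcl2 at -1.91, Cxcl5 at -1.66 and Socs3 at -1.62.

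Markers of other cells moved in part with the members. All 15 fibroblast and matrix genes lay above both vehicle arrays on each acolbifene array, with medians of 0.29 and 0.22 and summed linear levels of 117100 and 114300 against 95440 and 98880 with vehicle. On E2+raloxifene and fulvestrant 14 of 15 did, with sums of 114400 and 113000. The 13 neutrophil markers had sums of 5071 and 5131 with acolbifene and 5302 and 5156 with vehicle, and bright markers weigh most in such sums. Against vehicle 0 were called with acolbifene, and 2 were called higher and 0 lower with E2. The 17 lymphocyte markers had sums of 20340 to 25680 on the 12 arrays other than vehicle, and 27580 and 27200 with vehicle. Of the 14 epithelial markers 6 rose with E2 and none fell, 10 lay above 0, and the median was 0.33. The 18 skeletal muscle markers had medians of -0.49 and 0.46 on E2 arrays 1 and 2, where the members had medians of -0.11 and -0.16. All 18 lay above both vehicle arrays on both E2+acolbifene arrays (medians 0.80 and 0.69) and on the fulvestrant array (0.78), while the E2+raloxifene array had a median of -1.13. With E2+acolbifene 5 of the muscle markers were called higher than vehicle and none lower. The part of the fibroblast, neutrophil, lymphocyte, epithelial and muscle lists in the members' differences was not tested.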

How the data were processed

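The values were log2 expression levels made with RMA by the authors, per the submitters' processing notes, with no version given, and deposited for 14 arrays. RMA normalizes quantiles between arrays and compresses weak signals, so folds of dim probe sets are understated. The design text names another array, whereas the 45101 probe sets are those of a later, larger mouse array. Names came from the platform annotation: 34945 probe sets had 1 symbol, 932 several and 9160 none. Lookup in RefSeq (GRCm38.p6) changed 0 symbols. The 64 control probe sets were left out.

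The tests came from limma 3.58.1 under R 4.3.3 (lmFit, eBayes, Benjamini-Hochberg over 45037 probe sets, adjusted p under 0.05). Differences between replicated groups, 6 in all, were taken from a fit of 8 arrays with 4 residual degrees of freedom. The 12 with unreplicated arrays used 14 arrays and the raw-file code, with 3; those against vehicle pass through the E2 pair. The script was tested on simulated data. Intervals are 95%. The number of arrays limits the precision. Summed levels are sums of 2 to the power of the log2 value.

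All members may be named; values on every array are given for called members, the brightest and those nearest to a call. From other lists called genes are named, at most 5 in each direction, plus Adipoq, Krt18, Krt14, Spi1 and Arg1. The members and lists were chosen with earlier results of these data known, so patterns already seen are not independent support. Alternatives covered normalization, dim probe sets, an intensity trend, the replicate block, the code, the probe set and each array left out. Replicate numbers did not pair the arrays (correlations of deviations from -0.12 to 0.12). Scanner files were not used here.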

Additional observations from a re-analysis of the deposited data

Results flagged for a closer look

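Acolbifene changed 7 members differently without and with E2, by the test of that difference in limma. The log2 difference of the effects was -1.20 for Clec4d (adjusted p = 0.00168), -1.20 for Ccl7 (adjusted p = 0.00187), -0.99 for Itgam (adjusted p = 0.0202), -0.91 for Clec4e (adjusted p = 0.0161), -0.74 for Ccl2 (adjusted p = 0.0186), -0.72 for Cd14 (adjusted p = 0.0156) and -0.51 for Cd163 (adjusted p = 0.038). For Clec4d, Clec4e, Itgam, Cd14 and Cd163 acolbifene was above vehicle without E2, and no difference passed the test on top of E2. For Ccl7 it was above vehicle without E2 and below E2 alone on top of E2. For Ccl2 only the second effect passed the test. The test uses 2 arrays a group, and its share of all genes called below 0 was 3.54%.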

How the results depend on the processing

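With 2 arrays in a group the counts of called members depended on each array, while directions mostly did not. Of 585 values, for 39 called gene and comparison pairs under 15 alternatives, 417 kept the call, 167 lost it and 1 turned, Msr1 in E2 minus vehicle, at 0.08 for its most variable probe set. Called in every alternative were 9: Cd68 and Ccl7 for E2, Clec4d for acolbifene, Adgre1, Clec4d, Clec4e and Fcgr1 for acolbifene minus E2, and Clec4d and Ccl7 for the difference of the effects. Adding the unreplicated arrays by group changed no count, by construction.

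Leaving out 1 array in turn gave 2 to 4 called members for E2 minus vehicle (medians -0.16 to -0.11), 1 to 5 for acolbifene minus vehicle, 4 to 15 for acolbifene minus E2 (medians 0.34 to 0.40), 0 to 2 for E2+acolbifene minus E2 (medians -0.05 to 0.01), 0 to 1 for E2+acolbifene minus vehicle (medians -0.17 to -0.13) and 2 to 6 for the difference of the effects (medians -0.24 to -0.17). The number of all genes called changed as well with the array left out. An intensity trend gave 11, 14, 23, 2, 6 and 11 calls in that order. Over all genes it called 1244, 802, 1771, 1412, 970 and 2154. The fit by group only called 719, 143, 850, 680, 199 and 931 of all genes, so the background rose with the trend too. Without dim probe sets E2 minus vehicle had 7. The raw-file code as a term gave 2 for E2 minus vehicle (median -0.16), 4 for acolbifene minus E2, 1 for E2+acolbifene minus E2 and 1 for E2+acolbifene minus vehicle. The replicate block gave 1 for E2+acolbifene minus vehicle, and 3, 6, 15, 2 and 6 for the other comparisons in order.

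Quantile normalization again gave 3 calls for E2 minus vehicle, 2 higher and 1 lower, with Cd68 and Ccl7 kept. It gave 4 calls and a median of 0.15 for acolbifene minus vehicle and 1 call and -0.06 for E2+acolbifene minus vehicle. Its medians were 0.28 for acolbifene minus E2, 0.08 for E2+acolbifene minus E2 and -0.06 for the difference. The most variable probe set gave medians of 0.24, 0.38 and -0.25 for acolbifene minus vehicle, acolbifene minus E2 and the difference. The causes were not tested.

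For unreplicated arrays, a fit with no code called 1 member for raloxifene and 1 for tamoxifen minus vehicle, 2 for fulvestrant minus vehicle, 2, 6, 3 and 1 for raloxifene, fulvestrant, E2+raloxifene and E2+tamoxifen minus E2. The trend called 1, 1 and 2 for raloxifene, tamoxifen and fulvestrant minus vehicle, 3, 2, 13 and 11 for raloxifene, tamoxifen, fulvestrant and E2+raloxifene minus E2, and 1 for tamoxifen minus fulvestrant. Without dim probe sets the counts were 1 for raloxifene minus vehicle and 2, 3 and 2 for raloxifene, fulvestrant and E2+raloxifene minus E2.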
